A study of Drosophila melanogaster with 8 samples.

Results

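The heat shock protein genes described here are 10 of the 12082 gene rows analysed from whole adult females of Drosophila melanogaster. They were chosen by gene name and number, and all 10 have a row. They are the small heat shock genes Hsp22 (CG4460), Hsp23 (CG4463), Hsp26 (CG4183), Hsp27 (CG4466), Hsp67Ba (CG4167), Hsp67Bc (CG4190) and l(2)efl (CG4533), the Hsp70 relative Hsp68 (CG5436), the Hsp90 gene Hsp83 (CG1242) and the mitochondrial chaperonin gene Hsp60A (CG12101). Polyadenylated RNA was sequenced from 4 Mutant libraries, of genotype btl>DHR78; DHR78[1]/[3], and 4 Control libraries, of genotype btl>DHR78. DHR78 (now Hr78) encodes a nuclear receptor, the mutants carried a pair of its mutant alleles, and both genotypes carried a transgene that expresses the receptor under the driver of breathless (btl), the gene of a tracheal FGF receptor. All females were 1 week old and were raised on food with 8% yeast and 9% sugar, and each library pooled RNA of 2 collections of 12 females, so p-values measure the spread between these pools. Nothing is said of a heat shock in the labels, so the values are levels in flies with no stated stress, and the question is whether they differed between the mutants and their controls.

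Heat shock proteins are chaperones. The small ones share an alpha-crystallin domain and hold unfolded proteins without using ATP, whereas the Hsp70, Hsp90 and Hsp60 families refold or mature their clients in cycles of ATP hydrolysis with the help of co-chaperones. In flies, heat shock factor (Hsf) binds repeated short elements upstream of these genes and induces them strongly on heat, but several also run without stress: small heat shock genes of the 67B cluster respond to the steroid hormone ecdysone, and Hsp26, Hsp27 and Hsp83 are transcribed in the nurse cells of the ovary.

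Totals were 22608378 to 33054191 counts in Mutant libraries and 19544675 to 28106635 counts in Control libraries. A floor of 3 counts, below which a level was not read, equalled 0.0908 to 0.133 CPM (counts per 1000000) in Mutant and 0.107 to 0.153 CPM in Control libraries. These floor values use the unscaled totals, whereas the levels below use totals scaled between libraries (TMM). Hr78 itself was at 71.6 ± 1.71 CPM in Mutant and 123 ± 4.22 CPM in Control libraries (SD, n = 4 each; log2 fold change -0.79, adjusted p = 4.9e-06 in edgeR), and the counts may include reads of the transgene. Transcripts of btl were at 6.14 ± 0.622 CPM in Mutant and 6.35 ± 0.681 CPM in Control libraries, a log2 fold change of -0.05. One library stood apart. Over 17 marker genes of the male germline and accessory gland, Mutant replicate 2 summed to 236 CPM, the other Mutant libraries to 37.5 to 41.5 CPM and the Control libraries to 35.9 to 39.6 CPM. In all libraries but Mutant replicate 2 nearly all of that sum was Acp95EF, at 37.0 to 40.8 CPM in those Mutant libraries and 35.5 to 38.4 CPM in Control libraries. The other 16 markers summed to 178 CPM in Mutant replicate 2, 0.474 to 0.763 CPM in the other Mutant libraries and 0.448 to 1.22 CPM in Control libraries. In the other 3 Mutant libraries 9 of these 17 markers had no count at all, and 3 (Mst35Ba, Mst35Bb and SP) had none in any Control library. The results below are therefore also given without that library where it alters them.

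Of the 10 heat shock genes, 2 rose in the mutant, l(2)efl and Hsp68, and none fell. The threshold was 0.05 after Benjamini-Hochberg adjustment over 10525 genes of the p from the quasi-likelihood test of edgeR, and the other 8 did not pass it. Over all genes tested 19.6% passed, 8.46% as higher (890) and 11.1% as lower (1173) in the mutant, so 2 of 10 is near the share of the whole table. That split became 1499 higher and 872 lower with upper quartile scaling and 818 higher and 746 lower with an offset for transcript length. At an unadjusted p under 0.05 edgeR placed 4 of the 10 genes higher and 2 lower, where 33.9% of all genes had such a p. DESeq2 called 5 of the 10, with Hsp26 higher and Hsp22 and Hsp60A lower beside l(2)efl and Hsp68, where it called 22.1% of all genes. Without Mutant replicate 2, edgeR called 1 of the 10, l(2)efl as higher, where it called 16.2% of all genes. Of all genes, 22.5% passed with upper quartile scaling, 22.9% with replicate number as a block, 19.9% with RLE scaling, 21.4% with a minimum count of 50, and 19.8% both in limma-voom and in edgeR without robust estimation. The share was 15.0% with no filter, 14.9% with the length offset and 14.0% to 16.2% with 1 library left out (14.4% without Control replicate 3). The log2 fold changes of the 10 ran from -0.46 (Hsp22) to 0.82 (Hsp67Bc) with a median of -0.04, beside a median of 0.01 over all genes. All 10 passed the filter on low counts. The libraries of the genotypes did not overlap for 3 of them, Hsp67Bc, l(2)efl and Hsp68, all higher in the mutant, where 25.0% of all genes tested did not overlap (11.7% higher and 13.2% lower in the mutant). The 10 genes together took 0.54% to 0.586% of the counts of a Mutant library and 0.544% to 0.593% of those of a Control library.

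**Figure D1:**
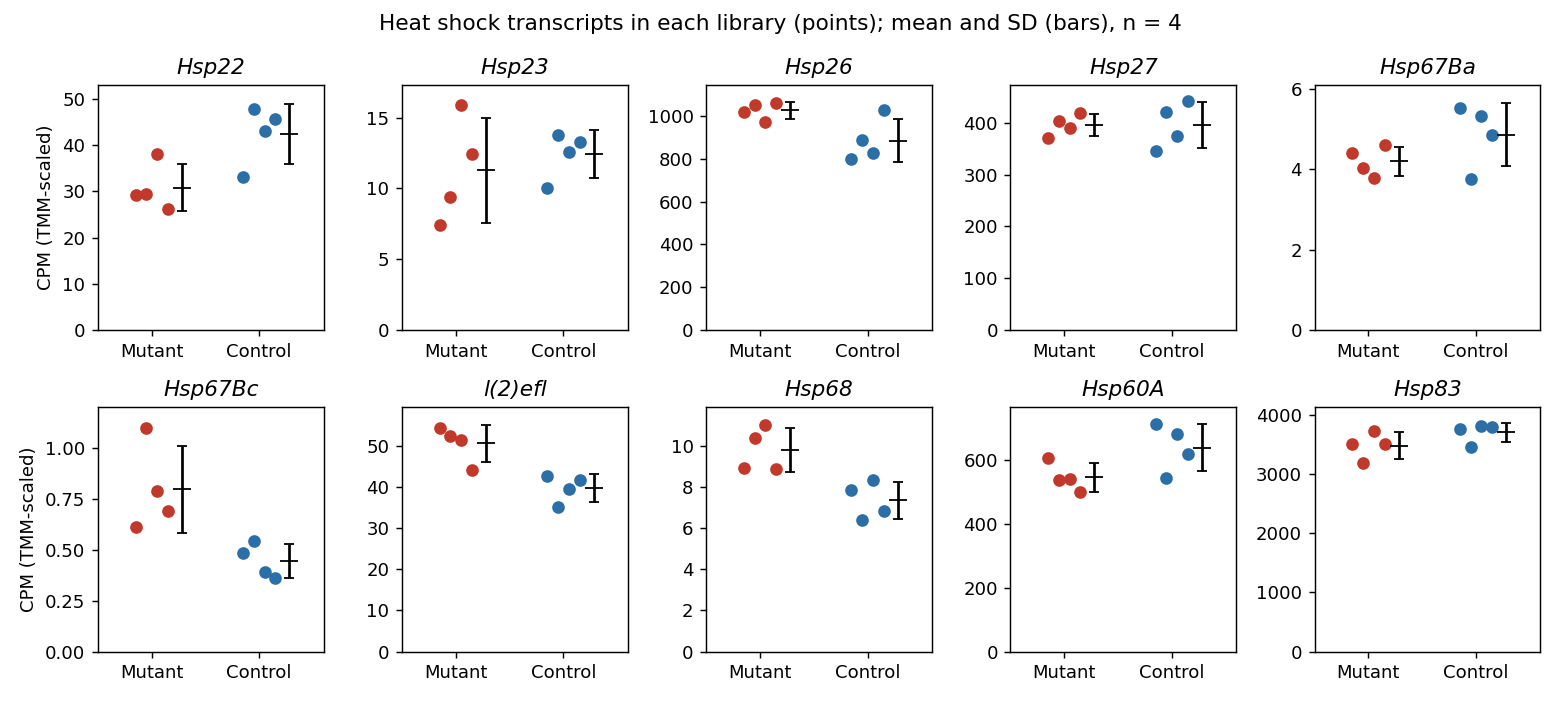
CPM of the 10 heat shock genes (y axes, each from 0) in 4 Mutant and 4 Control libraries (points), with the mean and SD as bars. The points of the genotypes are separate for Hsp67Bc, l(2)efl and Hsp68 and overlap for the other 7.

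**Figure D2:**
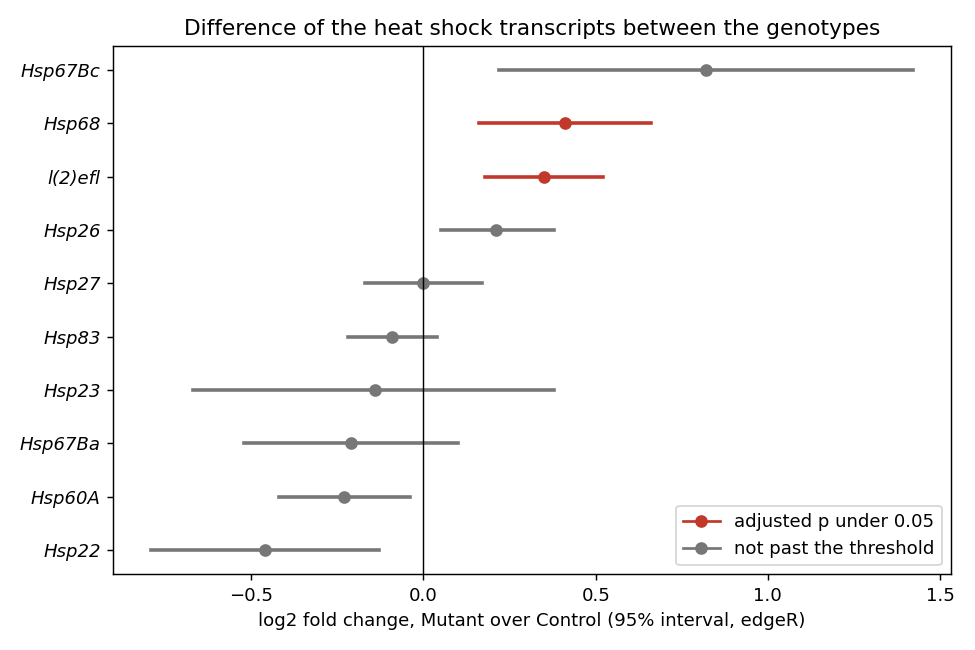
Log2 fold change of Mutant over Control (x axis) with its 95% interval for each gene (y axis), from edgeR. The intervals of l(2)efl and Hsp68, in red, belong to the 2 genes past the threshold, and those of Hsp22, Hsp26, Hsp60A and Hsp67Bc also leave out 0 before adjustment for the number of genes.

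The levels spanned a wide range. Per kilobase of exon, Hsp83 stood highest in both genotypes, at 1175 CPM per kb in Mutant and 1250.0 CPM per kb in Control libraries, followed by Hsp26 at 1017 CPM per kb in Mutant and 877 CPM per kb in Control libraries. Hsp27 stood at 243 CPM per kb in Mutant and 243 in Control libraries, with Hsp60A beside it at 219.8 CPM per kb in Mutant and 258 CPM per kb in Control libraries. The order of these means differed between the genotypes, but the libraries overlapped for both genes. Neither gene passed the threshold (adjusted p = 0.999 for Hsp27 and 0.0912 for Hsp60A, edgeR). Next came l(2)efl at 68.2 CPM per kb in Mutant and 53.6 in Control libraries, then Hsp22 at 16.2 in Mutant and 22.3 in Control libraries and Hsp23 at 12.8 in Mutant and 14.1 in Control libraries. The lowest were Hsp68 at 4.39 CPM per kb in Mutant and 3.30 in Control libraries, Hsp67Ba at 2.42 in Mutant and 2.81 in Control libraries, and Hsp67Bc at 0.808 in Mutant and 0.451 in Control libraries. Hsp83 alone held 60.2% to 64.7% of the counts of the 10 genes in Mutant libraries and 63.3% to 65.7% in Control libraries.

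Hsp22, a small heat shock protein of the mitochondrial matrix, lies in the 67B cluster on arm 3L. Its row held 29.3, 29.5, 38.1 and 26.2 CPM in Mutant replicates 1 to 4 and 33.2, 47.8, 43.1 and 45.7 CPM in Control replicates 1 to 4. Mutant replicate 3 was above Control replicate 1, and the other Mutant libraries were below all Control libraries. The means were 30.8 ± 5.09 CPM in Mutant and 42.4 ± 6.47 CPM in Control libraries, with a log2 fold change of -0.46 (95% interval -0.79 to -0.13) that missed the threshold (adjusted p = 0.0554, edgeR). It passed in DESeq2 (adjusted p = 0.00504), in limma-voom (0.0400), in edgeR without robust estimation (0.0359), without Control replicate 1 (-0.57, adjusted p = 0.0133) and without Mutant replicate 3 (-0.58, adjusted p = 0.0166). This row is identical in all 8 libraries to that of CG4456, also known as Hsp67Bb. In the Release 6 annotation these are overlapping genes on the same strand with a common end, so the counts cannot be assigned to Hsp22 rather than to CG4456.

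Hsp26 and Hsp27, which encode a cytosolic and a nuclear small heat shock protein, were the most abundant of the cluster per length. Hsp26 was at 1020.0, 1052, 973 and 1062 CPM in Mutant replicates 1 to 4 and at 798, 889, 827 and 1027 CPM in Control replicates 1 to 4. One Control library, replicate 4, lay among the Mutant libraries and the other 3 Control libraries lay below all of them. The log2 fold change of 0.21 (95% interval 0.05 to 0.38) did not pass (adjusted p = 0.0669, edgeR), and the alternatives in which it passed include DESeq2 (adjusted p = 0.0327), upper quartile scaling (0.26, adjusted p = 0.0293) and the fit without Control replicate 4 (0.29, adjusted p = 0.00968). Hsp27 was at 371, 404, 391 and 419.7 CPM in Mutant replicates 1 to 4 and at 346, 422, 375 and 442 CPM in Control replicates 1 to 4. The Mutant libraries of Hsp27 lay within the range of the Control libraries, and its 95% interval ran from 0.892 to 1.12 times the Control level.

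The log2 CPM of Hsp26 and Hsp27, as deviations from the genotype means, had a Pearson's r of 0.87 over the 8 libraries, a description only since libraries share depth and composition. Hsp26 over Hsp27 was 2.75, 2.61, 2.49 and 2.53 in Mutant replicates 1 to 4 and 2.31, 2.11, 2.21 and 2.32 in Control replicates 1 to 4. Every Mutant library was above every Control library, with 2.59 ± 0.114 in Mutant and 2.24 ± 0.100 in Control libraries (SD, n = 4 each). This ratio was singled out after the values had been seen, among many pairs of genes, and is given as a description with no test.

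**Figure D3:**
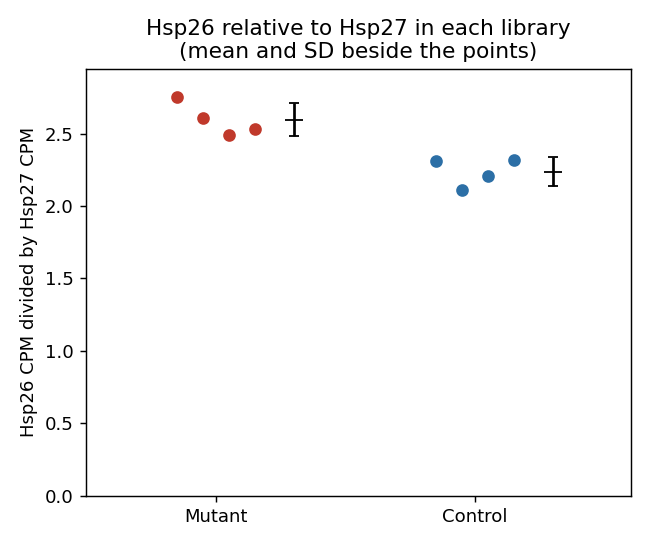
CPM of Hsp26 divided by CPM of Hsp27 (y axis, from 0) in 4 Mutant and 4 Control libraries (points), with mean and SD. The Mutant libraries lie between 2.49 and 2.75, above the Control libraries at 2.11 to 2.32.

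Ovary markers, of the germline and of the eggshell, are set beside Hsp26 and Hsp27 because of the nurse cells' known transcription of both. None of the 15 passed the threshold in edgeR, none had an unadjusted p under 0.05 and DESeq2 called 0. Over all genes these shares were 19.6%, 33.9% and 22.1%. The log2 fold changes of the 15 ran from -0.50 to 0.16. Those of the germline markers were 0.11 (nos), 0.11 (bcd), 0.16 (grk), 0.04 (osk) and -0.06 (orb). Those of the eggshell markers ran from -0.50 (Vm26Ab) to 0.13 (Vm32E). Cp38, of the eggshell, had the highest mean of the 15 in both genotypes, at 2808 CPM in Mutant and 2986 CPM in Control libraries. The summed level of the 15 markers was 10058 to 15546 CPM in Mutant and 9883 to 16838 CPM in Control libraries, and none of them was at 0. Their part in the levels of Hsp26 and Hsp27 was not tested. The oskar transcript (osk), which is made in nurse cells, was at 1352 ± 25.7 CPM in Mutant and 1311 ± 72.3 CPM in Control libraries. In RNA of whole females, fewer cells of a type and less RNA per cell cannot be told apart.

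Hsp23, a cytosolic small heat shock protein, was at 7.39, 9.42, 15.9 and 12.4 CPM in Mutant replicates 1 to 4 and at 10, 13.8, 12.6 and 13.3 CPM in Control replicates 1 to 4. Among the 10 genes it varied most between Mutant libraries, with an SD of 32.9% of the mean against 13.6% in Control libraries. Its log2 fold change of -0.14 (95% interval -0.67 to 0.38) became 0.02 without Mutant replicate 1, the library with the lowest level.

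Hsp67Ba was at 4.4, 4.03, 3.79 and 4.59 CPM in Mutant replicates 1 to 4 and at 5.52, 3.75, 5.33 and 4.85 CPM in Control replicates 1 to 4. Control replicate 2 was below all Mutant libraries, and the other Control libraries were above them. The log2 fold change was -0.21 (95% interval -0.52 to 0.10). Hsp67Bc, whose product works with the co-chaperone Starvin in autophagy, was the lowest of all, with 20, 30, 20 and 16 counts in Mutant replicates 1 to 4 and 13, 12, 8 and 7 counts in Control replicates 1 to 4. These counts are 0.798 ± 0.214 CPM in Mutant and 0.445 ± 0.0833 CPM in Control libraries, with every Mutant library above every Control library. The log2 fold change of 0.82 was the largest of the 10, with a 95% interval of 0.22 to 1.42, and it did not pass (adjusted p = 0.0570, edgeR). Without Mutant replicate 2, the highest library, it was 0.62 (adjusted p = 0.143).

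Along the chromosome the cluster runs from Hsp67Bc through CG4456, Hsp22, CG4461, Hsp26, Hsp67Ba and Hsp23 to Hsp27. With the identical rows of CG4456 and Hsp22 counted once, these are 7 rows, of which none passed the threshold in edgeR. At an unadjusted p under 0.05 there were 4, where 33.9% of all genes had such a p, and DESeq2 called 3 (the row of CG4456 and Hsp22, CG4461 and Hsp26), where it called 22.1% of all genes. Neighbours differed in sign. CG4461, a small heat shock gene between Hsp22 and Hsp26, was at 68.4 ± 5.87 CPM in Mutant and 80.8 ± 7.59 CPM in Control libraries and missed the threshold narrowly (log2 fold change -0.24, adjusted p = 0.0510, edgeR), whereas Hsp26 next to it had a log2 fold change of 0.21. CG4461 passed in 6 alternatives, among them DESeq2 (adjusted p = 0.0256) and the removal of Mutant replicate 2 (-0.28, adjusted p = 0.0362 in edgeR). Of the 3 genes on each side of the cluster, mRRF1, a mitochondrial ribosome recycling factor gene, rose with a log2 fold change of 0.19 (adjusted p = 0.0406, edgeR), and the other 5 did not pass, with log2 fold changes from -0.10 to 0.08. Hr78 lies on the same arm, 3L, and 21.1% of the tested genes of that arm passed the threshold.

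**Figure D4:**
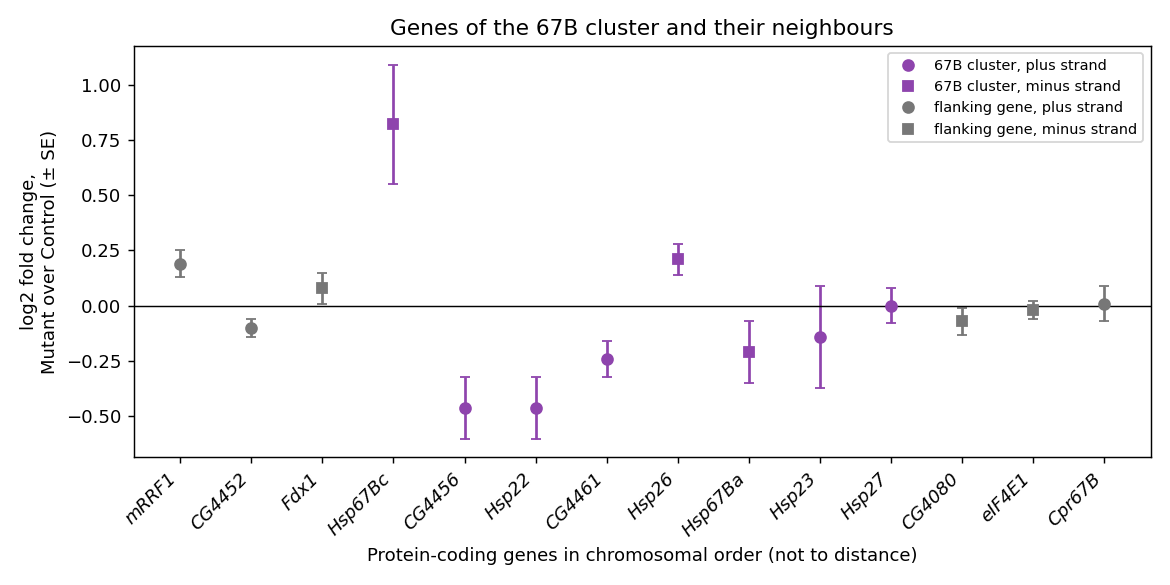
Log2 fold change of Mutant over Control with its standard error (y axis) for the 8 genes of the 67B cluster and 3 genes on each side, in chromosomal order (x axis, not to distance), with circles for the plus and squares for the minus strand. CG4456 and Hsp22 share all their counts at -0.46, Hsp67Bc stands at 0.82 and Hsp27 at 0.00.

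Outside the cluster, l(2)efl rose. It encodes a small heat shock protein related to alpha-B crystallin that is found in muscle. It was at 54.4, 52.4, 51.4 and 44.0 CPM in Mutant replicates 1 to 4 and at 42.7, 35.0, 39.5 and 41.6 CPM in Control replicates 1 to 4. Every Mutant library was above every Control library, though Mutant replicate 4 exceeded Control replicate 1 by little. The means of 50.6 ± 4.55 CPM in Mutant and 39.7 ± 3.40 CPM in Control libraries gave a log2 fold change of 0.35 (standard error 0.08, 95% interval 0.18 to 0.52, adjusted p = 0.0110, edgeR). The call was kept in all 17 alternatives tried, with adjusted p from 0.00115 to 0.0332. It was 0.33 without Mutant replicate 2 (adjusted p = 0.0256).

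A second small heat shock gene outside the cluster, CG14207, rose as well. It is also known as HspB8, its product acts with Starvin at the muscle Z-disc, and it is not one of the 10 genes. It was at 138, 135, 133 and 123 CPM in Mutant replicates 1 to 4 and at 106, 112, 112 and 107 CPM in Control replicates 1 to 4. The Mutant libraries were all higher, with a log2 fold change of 0.28 (standard error 0.05, adjusted p = 0.00257, edgeR). Of the 5 other small heat shock genes with rows (CG4456, CG4461, CG7409, CG14207 and CG13133), CG14207 was the 1 that passed in edgeR. Over all genes 19.6% passed. DESeq2 called 3 of the 5 (CG14207 higher, CG4456 and CG4461 lower), where it called 22.1% of all genes. The row of CG4456 is that of Hsp22 and so is counted among the 10 as well. The log2 fold change of CG7409 was 0.20 and that of CG13133 was 0.04.

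Of 9 muscle markers, 3 rose and 1 fell in edgeR, where 19.6% of all genes passed. DESeq2 called 5 of the 9, where it called 22.1% of all genes. The other 5 did not pass in edgeR, with log2 fold changes of -0.14 (Mhc), -0.11 (up), 0.15 (Tm2), 0.26 (bt) and 0.18 (TpnC4). Act88F, an actin of the flight muscle, was at 20.1 ± 4.52 CPM in Mutant and 10.3 ± 2.54 CPM in Control libraries (log2 fold change 0.98). Mlc2, a myosin light chain gene, had a log2 fold change of 0.31 and wupA, which encodes troponin I, 0.32. The giant titin-like gene sls had -0.21 (adjusted p = 0.0443, edgeR). With an offset for transcript length sls was at 0.26 and passed as higher instead (adjusted p = 0.0447, edgeR). Its call was lost without Mutant replicate 2 (-0.18, adjusted p = 0.108), without Mutant replicates 1 or 4 or Control replicates 1, 2 or 3 (adjusted p 0.0866 to 0.106), and with upper quartile scaling (0.0963), no filter (0.0654) or no robust estimation (0.0515). The summed level of the 9 markers was 1972 to 2177 CPM in Mutant and 1811 to 2179 CPM in Control libraries, none was at 0, and their part in the rise of l(2)efl and CG14207 was not tested.

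Hsp68, an inducible relative of Hsp70, was the second of the 10 genes to rise. It was at 8.91, 10.4, 11 and 8.87 CPM in Mutant replicates 1 to 4 and at 7.84, 6.41, 8.36 and 6.82 CPM in Control replicates 1 to 4. The lowest Mutant library was still above the highest Control library. The log2 fold change was 0.41 (standard error 0.11, 95% interval 0.16 to 0.66, adjusted p = 0.0289, edgeR). The call did not survive the loss of some libraries: the adjusted p was 0.0666 without Mutant replicate 2, 0.0862 without Mutant replicate 3, 0.0690 without Control replicate 2 and 0.0718 without Control replicate 4, with log2 fold changes of 0.35 to 0.38. Fewer genes pass over the whole table when any 1 library is left out, with 1476 to 1702 against 2063.

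The classical heat-inducible Hsp70 genes had few reads where they had a row. Of 6 near-identical copies, Hsp70Ab and Hsp70Bb had a row and were analysed here. Hsp70Aa, Hsp70Ba, Hsp70Bbb and Hsp70Bc had no row under their gene numbers, so their levels are not known. Hsp70Ab had 6, 10, 15 and 13 counts in Mutant replicates 1 to 4 and 13, 15, 9 and 6 counts in Control replicates 1 to 4. Hsp70Bb was at 0.995 ± 0.268 CPM in Mutant and 1.00 ± 0.146 CPM in Control libraries. The genotypes overlapped for both genes, and neither passed (log2 fold changes of -0.21 for Hsp70Ab and -0.03 for Hsp70Bb). These levels are uncertain, because reads that match more than 1 copy could have gone to any of them or to none.

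Of the 6 constitutive members of the Hsp70 family, none passed in edgeR, none had an unadjusted p under 0.05, and DESeq2 called 0. Over all genes these shares were 19.6%, 33.9% and 22.1%. The main cytosolic form, Hsc70-4, was at 5761 ± 197 CPM in Mutant and 6034 ± 302 CPM in Control libraries (log2 fold change -0.07). Hsc70-3, the BiP of the endoplasmic reticulum, had a log2 fold change of -0.07, the mitochondrial Hsc70-5 -0.10, Hsc70Cb, the Hsp110 exchange factor, -0.07 and Hsc70-1 0.01. Hsc70-2 had a log2 fold change of 0.99 that rested on 1 library, with 2.23, 8.50, 2.17 and 1.95 CPM in Mutant replicates 1 to 4 and 1.94, 2.03, 1.56 and 1.96 CPM in Control replicates 1 to 4. Without Mutant replicate 2, the library with the male transcripts, it was 0.18.

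Hsp83, the cytosolic Hsp90 that matures kinases and steroid receptors, was among the 13 rows with the most counts in each library. It was at 3503, 3179, 3715 and 3511 CPM in Mutant replicates 1 to 4 and at 3752, 3457, 3807 and 3785 CPM in Control replicates 1 to 4. The genotypes overlapped, with Mutant replicate 2 and Control replicate 2 the lowest of their groups. The log2 fold change was -0.09 (95% interval -0.22 to 0.04, adjusted p = 0.313, edgeR). In this fit the interval ran from 0.859 to 1.03 times the Control level. Over the 17 alternatives the log2 fold change of Hsp83 ran from -0.13 to -0.04. Its relatives in the endoplasmic reticulum, Gp93, and in mitochondria, Trap1, had log2 fold changes of -0.06 and -0.09.

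Hsp60A, the chaperonin that folds proteins imported into mitochondria, was at 606, 537, 539 and 499 CPM in Mutant replicates 1 to 4 and at 712, 545, 680.3 and 617 CPM in Control replicates 1 to 4. One Mutant library, replicate 1, was above Control replicate 2. The means were 545 ± 44.5 CPM in Mutant and 639 ± 73.9 CPM in Control libraries, with a log2 fold change of -0.23 (95% interval -0.42 to -0.04) that did not pass (adjusted p = 0.0912, edgeR). The alternatives in which it passed include DESeq2 (adjusted p = 0.0412) and the fit without Control replicate 2 (-0.29, adjusted p = 0.0244).

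The paralogs Hsp60B, Hsp60C and Hsp60D, of which Hsp60B and Hsp60C are known from spermatogenesis, had most of their counts in 1 library. In Mutant replicate 2 they were at 12.2, 14.1 and 2.64 CPM. Each of the other Mutant libraries held at most 2 counts of any of the 3, below the floor, and each Control library at most 5 counts. CG9920, which encodes a small mitochondrial co-chaperonin of the Hsp10 type, was at 10.3 CPM in Mutant replicate 2, with 2 to 7 counts in each of the other Mutant libraries and 1 to 10 counts in each Control library. These 4 genes failed the filter on low counts and were not tested. This is the library whose male markers summed to 236 CPM, and their part in these values was not tested. Hsp60A itself in that library, at 537 CPM, lay within the range of the other Mutant libraries.

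**Figure D5:**
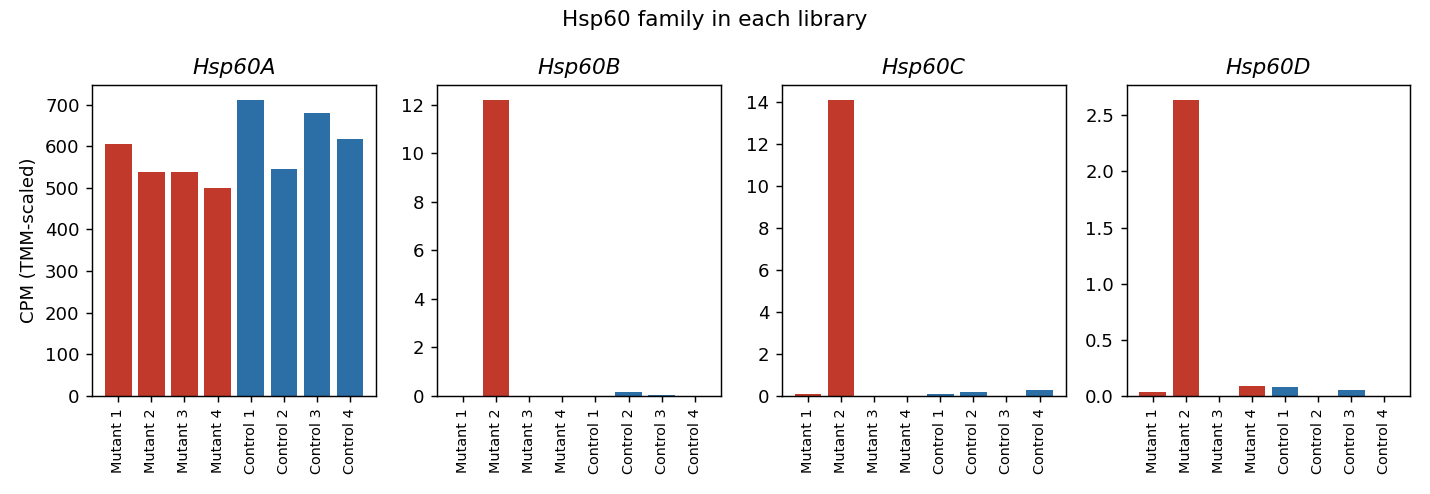
CPM (y axes, each from 0) of Hsp60A and its 3 paralogs in each Mutant and Control library (bars). Hsp60A lies between 499 and 712 CPM in all 8 libraries, while Hsp60B, Hsp60C and Hsp60D reach 12.2, 14.1 and 2.64 CPM in Mutant replicate 2 alone.

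Hsf, the factor that drives the heat shock response, was at 151 ± 6.28 CPM in Mutant and 145 ± 8.08 CPM in Control libraries (log2 fold change 0.06), and none of 9 genes tested, of Hsf and co-chaperones, passed in edgeR (1 had an unadjusted p under 0.05, and DESeq2 called 0). Of 8 J-domain genes, whose products deliver clients to Hsp70, 2 rose and 1 fell in edgeR. Over all genes tested 19.6% passed, 8.46% as higher and 11.1% as lower. DnaJ-H rose by 0.15 and mrj by 0.16 on the log2 scale, while Csp, a synaptic vesicle chaperone gene, had a log2 fold change of -0.18. The call of DnaJ-H was lost with the length offset and without Mutant replicates 2 or 4 or Control replicates 2 or 3 (adjusted p 0.0526 to 0.0690, edgeR). That of mrj was lost when any library but Mutant replicate 1 or Control replicate 2 was left out (adjusted p 0.0509 to 0.0801). The 9 chaperonin and co-chaperonin genes tested were CCT1 to CCT8 and Hsp10 (CG11267). Of these, CCT5, a subunit of the cytosolic ring that folds actin and tubulin, fell (log2 fold change -0.21, adjusted p = 0.0132, edgeR). The log2 fold changes of the 9 ran from -0.21 to -0.05, with a median of -0.09. None of 10 genes of the endoplasmic reticulum stress response passed in edgeR, none had an unadjusted p under 0.05 and DESeq2 called 0, with log2 fold changes from -0.07 to 0.08. Of 3 mitochondrial protease genes, ClpX fell (-0.26, adjusted p = 0.00972, edgeR), and Lon and ClpP did not pass. The share of all genes beside the chaperonin and protease counts is again 19.6%.

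The genes that followed each member most closely within genotypes, after the mean of each genotype was subtracted from log2 CPM, were SecS for Hsp22, SK for Hsp23, mats for Hsp26, Bub1 for Hsp27, CG15221 for Hsp67Ba and CCHa2 for Hsp67Bc. They were CG9849 for l(2)efl, Slob for Hsp68, mRpS22 for Hsp83 and RpLP0 for Hsp60A. Pearson's r was 0.96 to 1.00 over the 8 libraries, each the highest of 9321 candidates, and libraries share depth and composition, so these are descriptions only.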

How the data were processed

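The authors deposited 1 table of whole-number read counts per gene for the 8 libraries, not normalized, since the columns sum to different totals. Per the submitters' processing notes the build was dm3 and DESeq was used, with no role given. No aligner, counter, annotation or strand setting is named (not given in the sources used here), so reads of overlapping genes cannot be told apart. Columns were matched to samples by name (0 left unmapped), and 1 of 12083 rows names no gene (0.0154% to 0.0176% of counts) and was left out. Names, arms and gene order come from the RefSeq table of Release 6, and exonic lengths from the Ensembl annotation of BDGP6, matched for 98.7% of rows; no coordinates are given because the builds differ.

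Counts were filtered with edgeR 4.0.16 (filterByExpr, minimum count 10), scaled with TMM and tested with the robust quasi-likelihood test, Mutant over Control, two-sided, Benjamini-Hochberg, in R 4.3.3. CPM use TMM-scaled sizes. Standard errors were computed as log2 fold change divided by the root of F, without sign, and 95% intervals use the test's degrees of freedom. No 2 libraries of a genotype agreed within sampling noise (chi-square per degree of freedom 10.8 to 37.4). Alternatives were RLE and upper quartile scaling, no filter or a minimum count of 50, DESeq2 1.42.0, limma 3.58.1 with voom, no robust estimation, a replicate block, a length offset and leaving out each library. The floor and intervals cover counting error or the spread between these libraries only.

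The genes and lists were chosen with earlier results of these data known. The rule for named genes takes the 10 genes, Hr78 and btl, up to 4 called members of each chaperone list, the paralogs of the 10, and for each of the 10 the tested gene outside the lists, with a mean of at least 2 CPM, that follows it most closely within genotypes. Hsf, osk, the flanking genes and the markers named were added after their values were seen. The Aha1 homolog CG1416 was dropped because its listed symbol did not match.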

Additional observations from a re-analysis of the deposited data

Results flagged for a closer look

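Among the 20 sets of 4 libraries of the 10 heat shock genes, 1 held a library far from the others. Control replicate 2 was at 3457 CPM of Hsp83, and the other 3 Control libraries lay between 3752 and 3807 CPM. Chance alone gives about 1 such case in 20 sets.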

How the results depend on the processing

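Of the 10 heat shock genes, l(2)efl, Hsp83 and Hsp67Ba kept direction and side of the threshold in all 17 alternatives. The number called was 2 (2 higher, 0 lower), where 19.6% of all genes passed. It was 5 with DESeq2 (3 higher, 2 lower), where 22.1% of all genes passed. With upper quartile scaling it was 4 (4 higher), where 22.5% of all genes passed and 63.2% of all calls were higher. It was 3 with limma-voom and with edgeR without robust estimation (1 lower in each), where 19.8% of all genes passed. With 1 library left out it ranged from 1 to 3, with 1 to 2 higher and 0 to 1 lower. Of all genes, 14.0% to 16.2% then passed. Log2 fold changes that now passed were -0.47 for Hsp22, 0.21 for Hsp26 and -0.23 for Hsp60A with DESeq2, -0.45 and -0.46 for Hsp22 with limma-voom and without robust estimation, and 0.26 for Hsp26 and 0.87 for Hsp67Bc with upper quartile scaling. With 1 library left out, they ranged from -0.58 to -0.39 for Hsp22, -0.36 to 0.02 for Hsp23, 0.17 to 0.29 for Hsp26, -0.06 to 0.06 for Hsp27, 0.35 to 0.48 for Hsp68 and -0.29 to -0.17 for Hsp60A. The sign of Hsp27 turned with RLE scaling, no filter and DESeq2 (-0.00 in each) and with the length offset (-0.04). Among genes near 0, signs also turned for Hsp70Bb with upper quartile scaling (0.02), for CG13133 (-0.01) and btl (0.00) with the length offset, and with 1 library left out for btl (-0.12 to 0.02), CG13133 (-0.03 to 0.12), Hsp70Ab (-0.42 to 0.07), Hsp70Bb (-0.16 to 0.14) and Hsc70-1 (-0.07 to 0.10). The sign of the muscle marker sls turned with the length offset, where it passed as higher (0.26, adjusted p = 0.0447, edgeR). The cause was not tested. Hsp67Bc, Hsc70-2 and both Hsp70 copies have no value with a minimum count of 50. Depth limits Hsp67Bc and the Hsp70 copies, whose libraries held 6 to 31 counts.

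Equal replicate numbers are not said to mark shared batches. Same-numbered libraries correlated at 0.25, 0.02, 0.06 and 0.19 in their deviations from genotype means, so the numbers were not taken to pair them, and Mutant replicates 2 and 3 correlated best with a Control library of another number. With the replicate block 4 heat shock genes were called (3 higher, 1 lower), with Hsp26 at 0.22 (adjusted p = 0.0152, edgeR) and Hsp60A at -0.22 (adjusted p = 0.0215), both not called without it, and 2405 genes over the whole table against 2063.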
